A study of Mus musculus with 16 samples.

Results

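RIKEN-named transcripts are mouse genes that still carry the name of the cDNA clone by which they were first catalogued, a string of digits and letters that ends in Rik. Such symbols are borne by 2915 of the 57010 genes counted. The 370 transcripts described here were chosen by level, as those with a mean of at least 2 CPM (counts scaled to a common library total) over the 16 libraries, so their levels are given as a description.

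The libraries came from microglia of the olfactory bulb at 2 months of age, isolated with CD11b magnetic beads, and were made with a stranded total RNA kit after depletion of ribosomal RNA. WT and KI animals were compared, with 4 libraries from females (f) and 4 from males (m) in each genotype. WT animals were C57BL/6J mice, and KI animals, the knock-in group, carried App NL-G-F, a knock-in at the App locus with the Swedish, Arctic and Iberian mutations, on a C57BL/6J background. The control mice were bought from the Jackson Laboratory and are not described as littermates of the KI mice. A difference between colonies therefore cannot be told apart from one of genotype. The labels number the replicates and do not say that each is a separate mouse, so p-values measure the spread between these libraries, which may be technical.

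Catalogues of full-length mouse cDNA clones gave a great many genes such provisional names, and those whose product was later understood were renamed. What remains is rich in long non-coding RNAs (lncRNAs), which are spliced and polyadenylated like mRNAs but code for no known protein. Many of them start beside a protein-coding gene and run the other way, either away from it (divergent) or back across it (antisense), and others are the primary transcripts from which microRNAs (miRNAs) or small nucleolar RNAs (snoRNAs) are cut.

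Some of the RIKEN-named transcripts are therefore best known by the small RNAs they hold. In the gencode annotation of GRCm39, 14 of the 370 span at least 1 miRNA gene on their own strand, 35 miRNA genes in all. The mature sequences below are from RefSeq (GRCm38.p6), written 5′ to 3′, with the seed, bases 2 to 8, in capitals, because the seed is what pairs with target mRNAs and groups miRNAs into families. Mature miRNAs were not measured in these libraries, so all values further on are of the host transcripts.

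A330023F24Rik holds the genes of miR-29b and miR-29c, which share a seed.
mmu-miR-29b-3p: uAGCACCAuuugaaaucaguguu
mmu-miR-29c-3p: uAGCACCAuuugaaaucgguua
1700016P03Rik holds miR-132 and miR-212, which also share a seed and are known as activity-regulated miRNAs of neurons.
mmu-miR-132-3p: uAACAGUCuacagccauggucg
mmu-miR-212-3p: uAACAGUCuccagucacggcca
A230057D06Rik and A330076H08Rik, neighbours on chromosome 7, hold members of the miR-344 family.
mmu-miR-344-3p: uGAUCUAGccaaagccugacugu
mmu-miR-344c-3p: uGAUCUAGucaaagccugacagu
9530059O14Rik holds miR-138, which is enriched in brain, 5330434G04Rik holds miR-384 and miR-325, and B830012L14Rik holds miR-379, miR-411 and others of the imprinted cluster between Dlk1 and Dio3.
mmu-miR-138-5p: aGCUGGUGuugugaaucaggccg
mmu-miR-384-5p: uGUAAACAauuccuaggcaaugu
mmu-miR-379-5p: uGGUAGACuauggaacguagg
mmu-miR-411-5p: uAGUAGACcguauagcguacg
4833445I07Rik holds miR-191 and miR-425, which are found in most cell types.
mmu-miR-191-5p: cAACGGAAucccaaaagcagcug
mmu-miR-425-5p: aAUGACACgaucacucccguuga
F630028O10Rik, now named Mir223hg, holds miR-223, a miRNA of myeloid cells, and 6720427I07Rik holds 3 genes of the let-7 family.
mmu-miR-223-3p: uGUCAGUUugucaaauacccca
mmu-let-7a-5p: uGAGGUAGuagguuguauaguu

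By class, 117 of the 370 transcripts are protein-coding, 196 are lncRNAs and 49 are TEC, a class of mostly single-exon models that await experimental testing. A further 5 are pseudogenes, whose reads may be shared with near-identical copies, and 3 have no class in the annotations used. Coordinates on GRCm39 were found for 350, by symbol for 331 and by an exact match of the RefSeq promoter window for 19. Of the 370, 172 overlap a protein-coding gene on the opposite strand, 42 overlap one on the same strand, 16 are divergent with a start within 1 kb, and 120 do none of these. Of the 350 with coordinates, chromosome 7 holds 34, chromosome X 7 and chromosome Y 0.

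The libraries held 9052932 to 18117286 counts, of which the 370 transcripts took 0.3755% to 0.4281%. Their mean levels ran from 2.003 CPM to 294.1 CPM with a median of 5.04 CPM, and 94 reached 10 CPM. No library had fewer than 4 counts of any of them, and all 370 passed the filter of 5 counts in 50% of the libraries. Just above the threshold of the rule lay 2010310C07Rik at 2.007 CPM, F830016B08Rik at 2.006 CPM and 1700047O18Rik at 2.003 CPM, and just below it E530011L22Rik at 1.997 CPM, 1110025M09Rik at 1.996 CPM and C130013H08Rik at 1.989 CPM. Microglia markers had a mean log2 CPM of 10.57 in WT and 10.58 in KI libraries, and none of 10 was called. Xist reached 523 to 878 CPM in f and at most 0.432 CPM in m libraries, and App was at 419 CPM in WT and 399 CPM in KI libraries.

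The 6 highest levels belonged to protein-coding transcripts, none of which was called by genotype. 1700017B05Rik ranged from 268 to 363 CPM in WT libraries (median 323 CPM) and from 245 to 315 CPM in KI libraries (median 262 CPM). The ranges overlapped, and its log2 fold change of -0.22 ± 0.067 (SE, n = 8 per genotype) lay within the size threshold although its adjusted p was 0.0452 (edgeR quasi-likelihood test, Benjamini-Hochberg over all tested genes). 5031439G07Rik was at 159 to 181 CPM in WT and 155 to 184 CPM in KI libraries, and its coefficient of variation over all libraries was 4.35%, against a median of 22.7% for the 370. The other transcripts of this rank, 4833439L19Rik, 9530068E07Rik, 2510009E07Rik and 0610040J01Rik (now Pgcka1), had log2 fold changes between -0.10 and 0.05 with adjusted p-values from 0.296 to 0.804. Per kilobase of annotated exon the first among these 6 were 1700017B05Rik at 50.9 CPM, 0610040J01Rik at 22.6 CPM and 5031439G07Rik at 17.7 CPM. Outside the 6, 2810025M15Rik, 1810014B01Rik and 1110004F10Rik, named after their values were seen, stood at 63.8, 27.6 and 19.6 CPM per kilobase. The lncRNA 2410006H16Rik reached 17.9 CPM per kilobase, next to 5031439G07Rik.

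The genotype comparison asked which of these transcripts differ between KI and WT microglia once sex is accounted for. At an adjusted p below 0.1 with a log2 fold change of more than 0.5 in size, the thresholds for a call throughout, 105 of the 370 (28.4%) were called, 39 higher and 66 lower in KI. Over all 18227 genes tested 8.64% were called, 4.33% higher and 4.3% lower. Among all tested genes of at least 2 CPM, 915 of 13259 were called. The mean of the rule runs over both genotypes, so a transcript near 2 CPM can pass through the genotype in which it is higher. Away from that threshold, 11 of the 61 transcripts at 16 CPM or above were called (18%), beside 3.05% of 7207 tested genes of that level. The median log2 fold change of the 370 was -0.02, beside -0.0014 over all tested genes. The called transcripts had median log2 fold changes of 0.83 (higher) and -0.90 (lower). In 28 of the 370 the 8 KI libraries did not overlap the 8 WT libraries, 26 lower and 2 higher, whereas 1.29% of all tested genes had ranges that did not overlap.

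**Figure D1:**
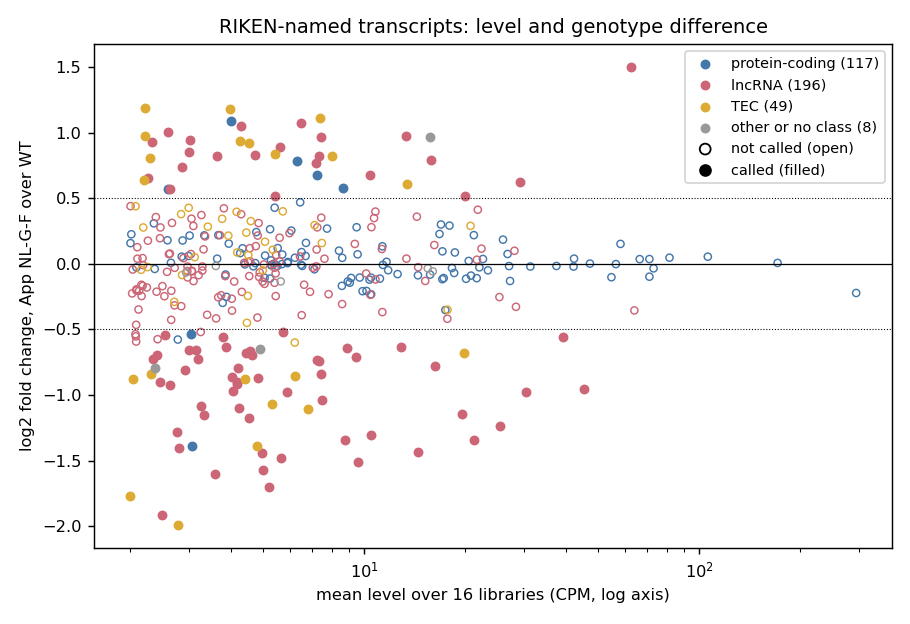
Each point is 1 of the 370 transcripts, with its mean level in CPM over 16 libraries on a log axis and the log2 fold change of KI (App NL-G-F) over WT, coloured by class. Filled points are the 105 called transcripts and dotted lines mark log2 fold changes of 0.5 and -0.5. The filled points are mostly lncRNA and TEC, and the protein-coding transcripts of highest level lie near 0.

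The calls fell mostly on lncRNA and TEC transcripts. Of the 117 protein-coding transcripts 7 were called (5.98%), 5 higher and 2 lower, near the 3.59% of the other protein-coding genes of at least 2 CPM. Of the 196 lncRNAs 74 were called (37.8%), 22 higher and 52 lower, and of 333 other lncRNAs of that level 34.2% were called. Of the 49 TEC transcripts 21 were called (42.9%), 11 higher and 10 lower, beside 35% of 286 other TEC genes. The share of calls in each of these classes stood nearer to that of other genes of the class than to the 8.64% over all genes. None of the 5 pseudogenes was called, and all 3 transcripts without a class were.

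By position, antisense transcripts had 13 higher (7.56%) and 47 lower calls (27.3%) among 172, and divergent ones 1 higher and 5 lower among 16, where 4.33% and 4.3% of all tested genes were called. Transcripts that overlap a coding gene on its own strand had 8 higher (19%) and 3 lower calls (7.14%) among 42, and those away from coding genes 14 (11.7%) and 9 (7.5%) among 120. No test of a difference between positions was made. Of the antisense lncRNAs 8.87% were called higher and 32.3% lower among 124, beside 7.06% and 31.8% of 170 other antisense lncRNAs of at least 2 CPM, and of those away from coding genes 14.3% each way among 49, beside 13.9% and 15.7% of 108. On the same strand 19.4% of 31 TEC transcripts were called higher and 9.68% lower, beside 25.8% and 7.51% of 213 other TEC genes. Reads of a transcript within a coding gene on its own strand were not told apart from unspliced RNA of that gene. Transcripts whose clone number begins with 17 or 49, the numbers of testis libraries, had 2 higher (3.23%) and 17 lower calls (27.4%) among 62, beside 37 (12%) and 49 (15.9%) among the other 308. Single-exon transcripts had 11 higher (15.7%) and 19 lower calls (27.1%) among 70, and 11.2% and 10.8% of 769 other single-exon genes of that level were called. These 2 sets differ in class. Within lncRNA and TEC alone, 16.2% of 68 single-exon transcripts were called higher and 27.9% lower, beside 20.5% and 15.3% of 346 other genes. With several exons 11.7% of 171 were called higher and 25.1% lower, beside 9.89% and 23.1% of 273 other genes. The single-exon transcripts mix classes, with 0% higher and 47.4% lower among 19 lncRNAs and 22.4% and 20.4% among 49 TEC.

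**Figure D2:**
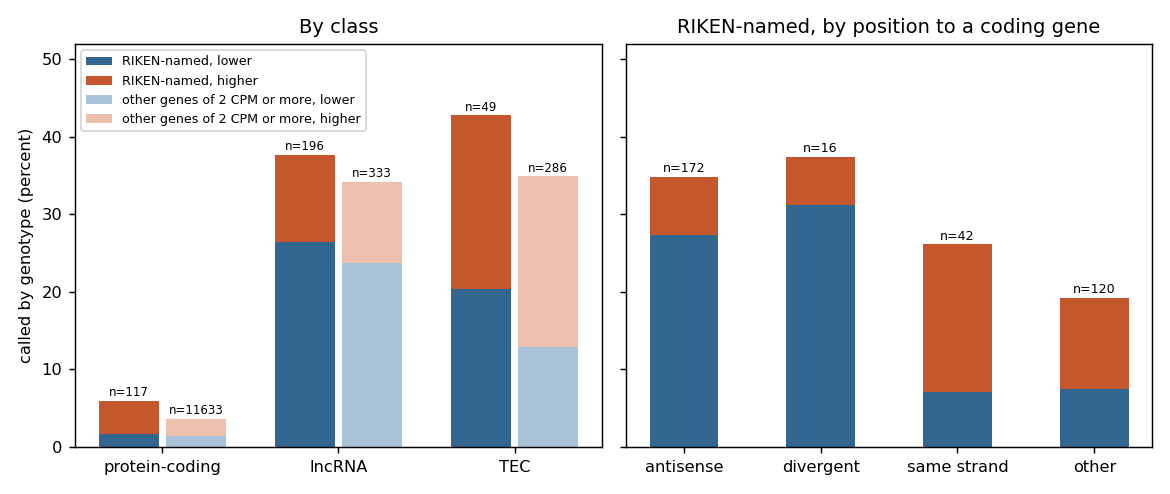
Percent of transcripts called by genotype, lower (blue) and higher (orange) stacked, for RIKEN-named transcripts beside other genes of at least 2 CPM by class, and for RIKEN-named transcripts by position to a protein-coding gene. The number of transcripts stands over each bar, and the antisense and divergent bars are mostly lower calls while the same-strand bar is mostly higher calls.

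Beside these counts, other gene lists moved with genotype. The 14 immediate early genes, which respond to cell isolation and activity, had a mean log2 CPM of 8.74 in WT and 7.56 in KI libraries (exact permutation within sex, two-sided p = 0.00163), with 13 of 14 called lower and summed levels of 7058 to 16620 CPM in WT and 3108 to 7331 CPM in KI. The 14 neuron markers stood at 4.59 in WT and 4.88 in KI (exact permutation p = 0.00857), with 1 of 14 called higher and summed levels of 478 to 699 CPM in WT and 611 to 936 CPM in KI. Of the other cell type lists, oligodendrocyte markers (1 of 6 called higher, summed levels of 231 to 428 CPM in WT and 282 to 413 CPM in KI, exact permutation p = 0.0171) and those of their precursors (0 of 4 called, exact permutation p = 0.0245) were higher in KI, p-values here being unadjusted over 11 lists. With the neuron score as a covariate 20 of the 370 remained called, 1 higher (G530011O06Rik) and 19 lower, and with the immediate early score 1 remained, again G530011O06Rik. The median log2 fold change of the 39 higher transcripts was then 0.215 with the neuron score, 34 of them staying above 0, and 0.499 with the immediate early score. That of the 66 lower transcripts was -0.694 with the neuron score, all below 0, and -0.417 with the immediate early score, 64 below 0. Both scores moved with genotype in these libraries, so that genotype and score cannot be told apart in these fits. In bulk samples fewer cells of a type and less RNA per cell cannot be told apart either.

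The lower transcripts with the smallest p were antisense or divergent to genes of many functions, and their WT and KI ranges did not overlap. 4930404I05Rik (chr16:90808075-90813637, GRCm39, plus strand), antisense to the PAX-binding protein gene Paxbp1, was at 10.6 to 14.9 CPM in WT libraries (median 13.1 CPM) and at 3.27 to 7.38 CPM in KI libraries (median 4.93 CPM). Its log2 fold change was -1.35 ± 0.165 (SE, adjusted p = 0.000184, n = 8 per genotype, exact permutation p = 0.000408). That exact p is the smallest that 4900 splits can give, and all 12 transcripts of this group had it. It is unadjusted, and the 12 were picked by their p in these same libraries, so it is not separate evidence. Paxbp1 itself was at 67.3 CPM in WT and 71.7 CPM in KI, a log2 fold change of 0.09 (adjusted p = 0.504). 4930404I05Rik lies 5.84 Mb from App, the knocked-in locus, and the part of that neighbourhood in its level was not tested. Of 11 transcripts on chromosome 16, the other one called was D930030I03Rik, named after its values were seen, which lies 46.5 Mb from App, with a log2 fold change of -1.40.

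2310010J17Rik (chr7:89773381-89780583, minus strand) runs antisense to Picalm, which encodes a clathrin assembly protein and is a known risk gene for Alzheimer's disease. It was at 9.41 to 21.0 CPM in WT (median 13.1 CPM) and 2.72 to 7.19 CPM in KI libraries (median 4.996 CPM). Every KI library was below every WT library, and the log2 fold change was -1.51 ± 0.194 (SE, adjusted p = 0.000271). Picalm was at 1038 CPM in WT and 975 CPM in KI, with a log2 fold change of -0.09 (adjusted p = 0.39).

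5031425E22Rik (chr5:23557556-23639396, minus strand) starts 22 bases from Kmt2e, a gene of the lysine methyltransferase family, and runs away from it. It was among the more abundant lower transcripts, at 31.0 to 60.3 CPM in WT (median 36.8 CPM) and 16.5 to 28.5 CPM in KI libraries (median 19.4 CPM). The WT libraries from females were the highest and the groups did not overlap (log2 fold change -0.98 ± 0.129, adjusted p = 0.000305). Kmt2e differed by 0.02 on the log2 scale (adjusted p = 0.817).

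2410006H16Rik (chr11:62493536-62495725, plus strand) is a host of the box C/D snoRNAs Snord49a, Snord49b and Snord65, which guide methylation of ribosomal RNA. Its levels were 39.5 to 53.1 CPM in WT (median 45.4 CPM) and 25.7 to 35.0 CPM in KI libraries (median 33.8 CPM). This was the smallest change of the 12, -0.56 ± 0.0749 on the log2 scale, with the smallest standard error (adjusted p = 0.000305).

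4833445I07Rik (chr9:108444626-108446855, plus strand), the host of miR-191 and miR-425 whose sequences stand above, starts 16 bases from Ndufaf3, an assembly factor of respiratory complex I. It was at 10.1 to 24.2 CPM in WT (median 13.7 CPM) and 3.88 to 9.36 CPM in KI libraries (median 5.204 CPM). KI libraries were lower without overlap, and the log2 fold change was -1.31 ± 0.197 (adjusted p = 0.000627). Ndufaf3 had an adjusted p of 0.0907 and a log2 fold change of -0.32, below the size needed for a call.

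4833438C02Rik lies antisense to Nfkb2, which encodes a subunit of the transcription factor NF-kappa B, and both were called lower. The transcript went from 26.8 to 46.0 CPM in WT (median 35.2 CPM) to 7.91 to 23.7 CPM in KI libraries (median 13.5 CPM), a log2 fold change of -1.24 ± 0.183 (adjusted p = 0.000595). Nfkb2 was at 63.7 CPM in WT and 42.3 CPM in KI, a log2 fold change of -0.58 ± 0.102 (adjusted p = 0.00178).

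The remaining lower transcripts of this group were antisense to Letm2 (D830025C05Rik), Alyref2 (B930036N10Rik), Bclaf1 (4933406P04Rik), Cox20 (B230369F24Rik), Hnrnpf (4933440N22Rik) and Rragd (4933421O10Rik). An antisense partner is the coding gene with the longest overlap, not the nearest start. The starts lay 633 to 869 bases apart for Alyref2, Bclaf1 and Cox20, 7464 for Hnrnpf and 48668 for Rragd. The log2 fold changes of these transcripts were -1.91, -1.44, -1.70, -1.48, -1.39 and -0.95 in that order, with adjusted p-values from 0.000305 to 0.000476. D830025C05Rik, at 2.21 to 6.19 CPM in WT and 0.510 to 1.497 CPM in KI libraries, had the largest change of the 12. This transcript met the 2 CPM of the rule only through its WT libraries. 4933421O10Rik was the most abundant, at 48.9 to 79.9 CPM in WT and 21.6 to 42.1 CPM in KI libraries, while Rragd, a GTPase that signals amino acids to mTORC1, differed by 0.23 on the log2 scale the other way (adjusted p = 0.0288), under the size threshold. With the neuron score as a covariate 11 of these 12 remained called, 2410006H16Rik being the exception, at log2 fold changes of -1.33 to -0.33. With the immediate early score 0 remained called (edgeR, lowest adjusted p = 0.687), at -1.44 to -0.36, with 4833445I07Rik at -0.36 and 4833438C02Rik at -0.42. The largest fall among all 370, chosen after its values were seen, was that of 1700061A03Rik, from a WT median of 3.88 CPM to a KI median of 1.01 CPM (log2 fold change -1.99 ± 0.322, adjusted p = 0.000912). That KI median is under the 2 CPM of the rule, so its place among the 370 rests on the WT libraries.

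**Figure D3:**
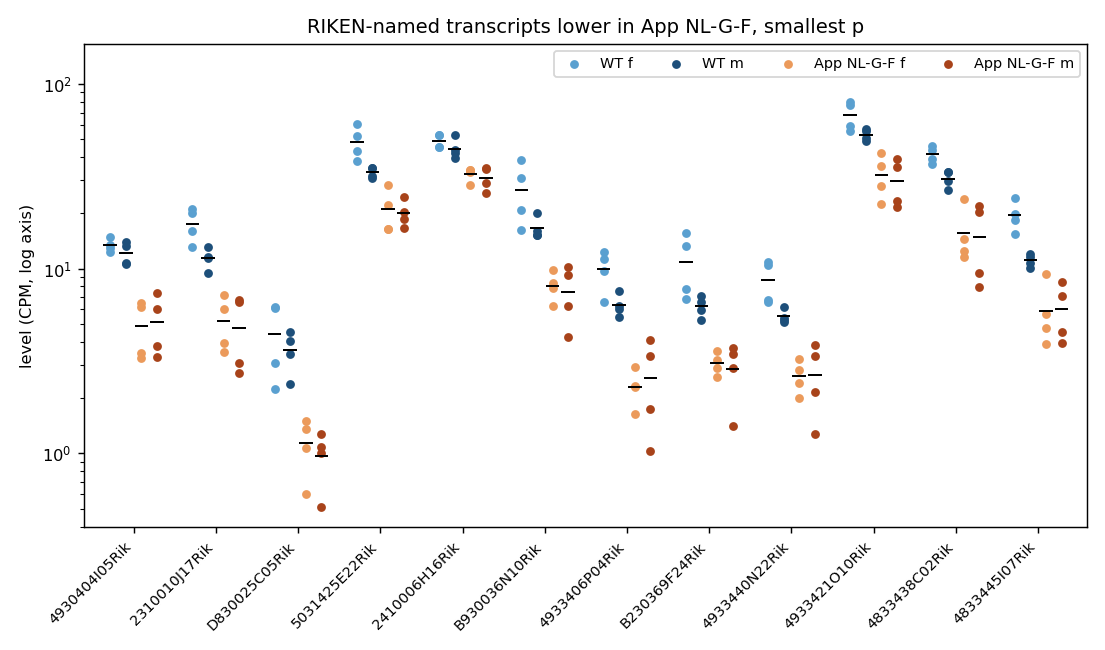
Level in CPM on a log axis of the 12 lower transcripts of smallest p, with 1 point per library, coloured by genotype and sex, and bars at the mean of 4 libraries. In each transcript all 8 KI (App NL-G-F) points lie below all 8 WT points.

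A coding gene that was tested overlapped or faced 52 of the lower and 20 of the higher transcripts. Among 44 antisense partners of lower transcripts 2 were called lower, Nfkb2 and Dusp18, and 0 higher, with a median log2 fold change of -0.08. Among 5 divergent partners of lower transcripts 0 were called, with a median of 0.02. Over all 52 partners of lower transcripts, 14 had an adjusted p under 0.1 with a log2 fold change below 0 and 1 with one above 0. Below the size needed for a call these included the actin gene Actg1 at -0.47 (adjusted p = 0.00369), the kinase gene Mapk6 at -0.42 (adjusted p = 0.0132) and the splicing repressor gene Ptbp1 at -0.27 (adjusted p = 0.0102), named after their values were seen. An adjusted p under 0.1, with either sign, was found in 2692 of all 18227 tested genes. In the 137 pairs of uncalled transcripts 10 partners had one with a log2 fold change below 0 and 8 with one above 0. Of the 20 partners of higher transcripts 6 were called higher and 0 lower, with a median of 0.229, where 4.33% of all tested genes were called higher and 4.3% lower. The 52 lower transcripts with a tested partner were below it in 47 cases, so their partners give the larger share of reads at most of these loci. The setting for strand in the counting is not given in the sources used here. Without strand, reads of a gene and of its antisense partner cannot be told apart, and the gene counting of STAR leaves out reads that overlap more than 1 gene. The starts of transcript and partner lay within 1 kb of each other in 28 of 52 lower, 5 of 14 higher and 40 of 122 uncalled transcripts that were antisense or divergent.

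**Figure D4:**
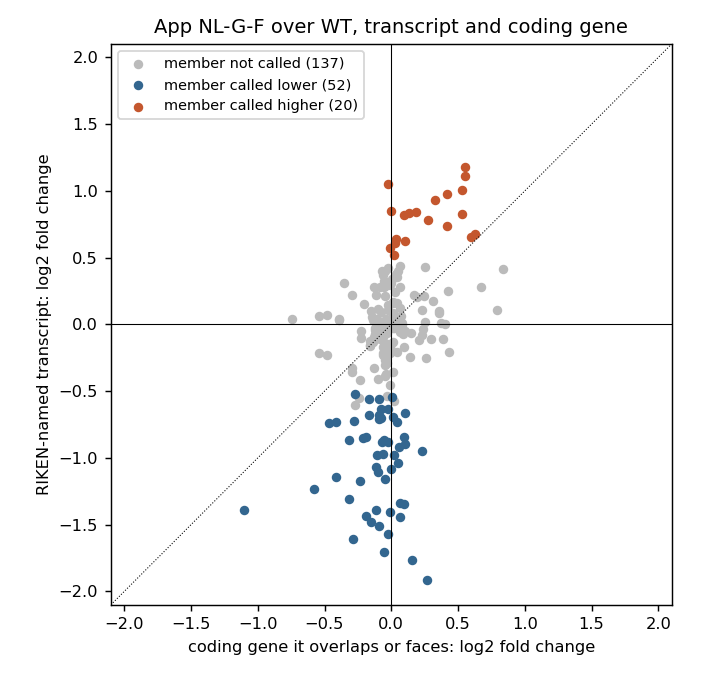
Log2 fold change of KI over WT for the RIKEN-named transcript (vertical) against that of the coding gene it overlaps or faces (horizontal), 1 point per pair, with a dotted line where both are equal. Of the 52 blue points (called lower) 41 lie within 0.25 of 0 on the horizontal axis, and they run from -1.10 (Dusp18) to 0.27. The 20 orange points (called higher) run from -0.03 to 0.63.

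Among the 39 higher transcripts the KI libraries lay wholly above the WT libraries in 1. B130055M24Rik (chr7:127047771-127068915, plus strand), antisense to the zinc finger gene Zfp689, was at 1.97 to 3.43 CPM in WT (median 2.60 CPM) and 3.61 to 5.36 CPM in KI libraries (median 4.75 CPM). Its log2 fold change was 0.82 ± 0.133 (SE, adjusted p = 0.000912, n = 8 per genotype, exact permutation p = 0.000408), and Zfp689 differed by 0.10 (adjusted p = 0.779). The other transcript whose KI libraries all lay above WT, 5430405H02Rik, also named after its values were seen, had a log2 fold change of 0.31 and was not called.

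G530011O06Rik had the largest rise, from 12.2 to 61.9 CPM in WT (median 34.04 CPM) to 57.5 to 132 CPM in KI libraries (median 93.1 CPM). The highest WT library, a female, overlapped the lowest KI library, and the log2 fold change was 1.501 ± 0.249 (adjusted p = 0.00112). In females the means were 46.0 CPM in WT and 80.3 CPM in KI, and in males 21.5 CPM and 101 CPM, which gave log2 fold changes of 0.81 and 2.25. The difference between the sexes did not pass the test over all genes (edgeR interaction, unadjusted p = 0.000978, adjusted p = 0.256). RefSeq lists this transcript on chromosomes X and Y, and its promoter window matched the GRCm39 genome at 3 places, so its counts are uncertain between near-identical copies. Mid1, the ubiquitin ligase gene within which RefSeq places it on the opposite strand, was also called higher, from 11.2 to 38 CPM (log2 fold change 1.82 ± 0.199, adjusted p = 8.66e-05).

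4930570G19Rik (chr3:156073048-156267452, minus strand) starts 21 bases from Negr1, a neuronal adhesion molecule, and both were called higher. The transcript was at 0.925 to 2.95 CPM in WT (median 1.65 CPM) and 1.74 to 5.21 CPM in KI libraries (median 3.35 CPM), with overlapping ranges and a log2 fold change of 1.01 ± 0.222 (adjusted p = 0.00802). Negr1 rose by 0.53 on the log2 scale (adjusted p = 0.03). 2610011E03Rik lies within Auts2, a gene of neuronal development, on the same strand, and had a log2 fold change of 1.18 (adjusted p = 0.0093) beside 0.55 for Auts2 (adjusted p = 0.0276). In WT libraries 2610011E03Rik, a single-exon model, was at 2.49 CPM and Auts2 at 144 CPM. Reads of this model and of unspliced Auts2 RNA were not told apart. Of the coding partners of higher transcripts, 3 of 12 antisense ones (Meis2, Negr1 and Arpp21) and 3 of 7 same-strand ones were called higher, Auts2 counted for both transcripts it holds and Nalf1 being the other.

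The other higher transcripts of this group had no coding partner that was called. For B230334C09Rik no coordinates were found, and Gm49353, which 9330159F19Rik overlaps on the same strand, was not tested. 9330162G02Rik (chr7:58873595-58904536, minus strand), a single-exon model opposite the ubiquitin ligase gene Ube3a, was at 7.82 to 14.7 CPM in WT (median 9.81 CPM) and 11.1 to 22.8 CPM in KI libraries (median 14.6 CPM), a log2 fold change of 0.61 ± 0.135 (adjusted p = 0.00851), while Ube3a differed by 0.03. A330074H02Rik and E330034L11Rik, both TEC, rose by 0.92 and 0.94 on the log2 scale. B230334C09Rik, with no class, rose by 0.97 (adjusted p = 0.00741), A230006K03Rik by 0.77, A830082N09Rik by 0.85 and the protein-coding 9330159F19Rik by 0.68, each with overlapping ranges. The 12 higher transcripts of smallest p had exact permutation p-values from 0.000408 to 0.00449, unadjusted and from the same libraries by which they were picked. Of these 12 only G530011O06Rik remained called with either covariate. The other log2 fold changes were then 0.17 (A230006K03Rik) to 0.51 (B130055M24Rik) with the neuron score and 0.17 (9330162G02Rik) to 0.71 (4930570G19Rik) with the immediate early score.

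**Figure D5:**
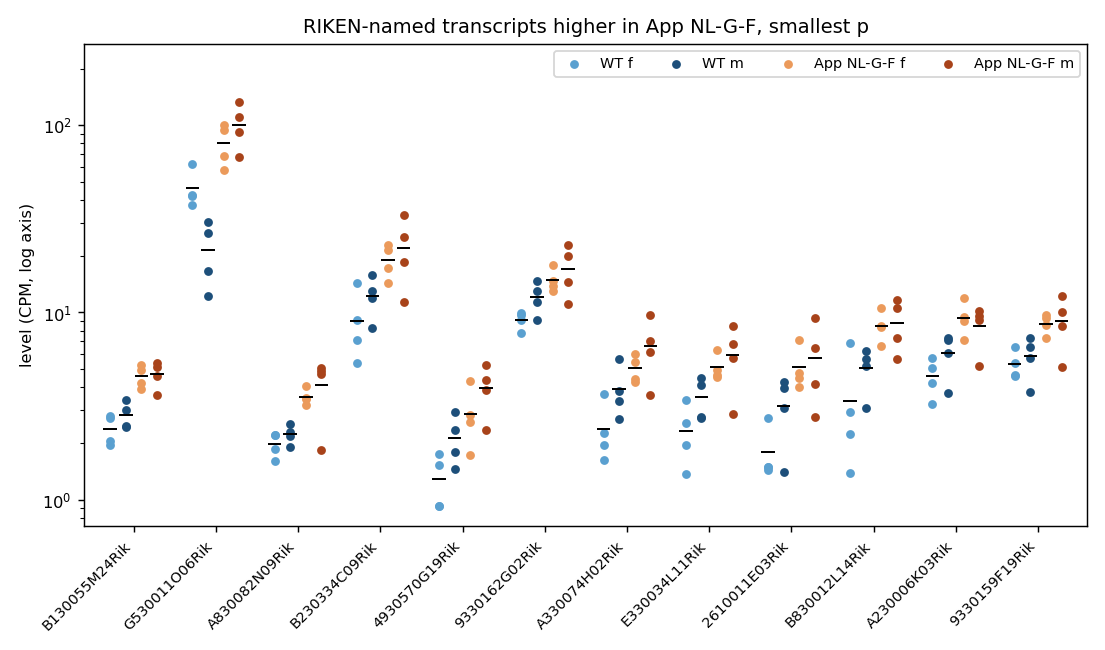
Level in CPM on a log axis of the 12 higher transcripts of smallest p, with 1 point per library, coloured by genotype and sex, and bars at the mean of 4 libraries. KI (App NL-G-F) means lie above WT means of the same sex in all 12, and single libraries overlap in all but B130055M24Rik.

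The hosts of miRNAs, picked out after their values were seen, were called higher in 7 of 14 cases and lower in 1, and 6 were not called. Over all tested genes 4.33% were called higher and 4.3% lower, and among the 196 RIKEN-named lncRNAs 11.2% and 26.5%. A230057D06Rik and A330076H08Rik are neighbours on chromosome 7, so the 7 are not all separate loci. A330023F24Rik, host of miR-29b and miR-29c, was at 14.3 to 30.6 CPM in WT (median 23.1 CPM) and 18.5 to 47.2 CPM in KI libraries (median 35.8 CPM), a log2 fold change of 0.63 ± 0.188 (adjusted p = 0.0439). 1700016P03Rik, host of miR-132 and miR-212, was at 1.75 to 4.53 CPM in WT (median 2.08 CPM) and 2.27 to 9.04 CPM in KI libraries (median 6.07 CPM), a log2 fold change of 1.05 ± 0.274 (adjusted p = 0.0213). In both hosts the ranges overlapped, and KI libraries reached the highest values.

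The hosts of miR-138 (9530059O14Rik) and of miR-384 and miR-325 (5330434G04Rik) each rose by 0.97 on the log2 scale, with adjusted p-values of 0.0435 and 0.0253. 9530059O14Rik ranged from 2.31 to 17 CPM in WT libraries (median 7.68 CPM) and from 9.07 to 24.3 CPM in KI libraries (median 18.2 CPM). B830012L14Rik, the host of miR-379 and miR-411, was at 1.39 to 6.84 CPM in WT (median 4.12 CPM) and 5.63 to 11.7 CPM in KI libraries (median 8.41 CPM), a log2 fold change of 1.07 ± 0.244 (adjusted p = 0.00985). The miR-344 hosts A230057D06Rik and A330076H08Rik rose by 0.89 and 0.95, with adjusted p-values of 0.0514 and 0.059. The neuron markers named above were higher in KI as these hosts were. With the neuron score as a covariate 0 of the 7 higher hosts remained called (edgeR), at log2 fold changes of -0.06 (A330023F24Rik) to 0.39 (B830012L14Rik) with adjusted p-values of 0.597 to 0.929. With the immediate early score 0 remained called either, at 0.22 to 0.70 with an adjusted p of at least 0.954. The lower host, 4833445I07Rik, was at -1.03 with the neuron score (adjusted p = 0.0745) and lost its call with the immediate early score.

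The host of the myeloid miR-223, F630028O10Rik, had a median of 3.08 CPM in both genotypes, between 1.52 and 3.86 CPM in WT and 1.80 and 3.81 CPM in KI libraries (log2 fold change 0.04 ± 0.188, adjusted p = 0.929). The let-7 host 6720427I07Rik was at 5.05 to 8.14 CPM in WT and 5.96 to 8.27 CPM in KI libraries (log2 fold change -0.03 ± 0.0922, adjusted p = 0.892). The hosts of miR-101a (E130102H24Rik), miR-1249 (5031439G07Rik), miR-339 (3110082I17Rik) and miR-1839 (2900076A07Rik) had log2 fold changes of -0.09, 0.01, -0.14 and -0.26 and were not called.

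The comparison within each sex asked whether the genotype difference held in females and in males. In females 83 of the 370 were called, 27 higher and 56 lower, with 7.15% of all genes called, 2.82% higher and 4.33% lower. In males 8 were called, 1 higher (G530011O06Rik) and 7 lower, with 0.252% of all genes called, 0.0878% higher and 0.165% lower. Leaving out 1 library moved the male count between 1 and 50, with 50 when KI m replicate 3 and 32 when KI m replicate 4 was left out, and the female count between 45 and 99, with 45, 46 and 55 without WT f replicate 1, KI f replicate 3 and WT f replicate 2. All 56 transcripts lower in females had a log2 fold change below 0 in males as well, with medians of -1.21 and -0.83, and 44 of them had an unadjusted p under 0.05 in males. Of 27 higher in females 26 were above 0 in males, with medians of 0.98 and 0.62, and 13 had an unadjusted p under 0.05. Over all tested genes 2126 of 18227 had such a p in males.

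Whether the genotype effect differed with sex was tested directly, and no transcript among the 370 passed (edgeR interaction, 0 called, with 0.0274% of all genes called, 28 at an unadjusted p under 0.05, and 0 by DESeq2). A call in females and none in males is therefore not shown to be a difference between them. Immediate early genes differed between the WT sexes, at a mean log2 CPM of 9.21 ± 0.126 (SD, n = 4) in females and 8.28 ± 0.116 in males, beside 7.52 ± 0.460 and 7.59 ± 0.720 in KI females and males. Endothelial cell markers did too, at 3.46 ± 0.563 in WT females and 2.11 ± 0.2145 in WT males. In KI females and males they stood at 2.65 ± 0.1398 and 2.80 ± 0.355. The part of either list in the calls within each sex was not tested. Sex itself, m against f with genotype in the model, gave 0 calls (edgeR, 34 at an unadjusted p under 0.05) where 0.0604% of all genes were called.

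The 7 protein-coding transcripts called, named after their values were seen, were D430041D05Rik, 9330159F19Rik, 6430571L13Rik, 3830403N18Rik and 1110002E22Rik, higher with log2 fold changes of 0.58, 0.68, 0.78, 1.09 and 0.57, and 4921536K21Rik and 4930523C07Rik, lower with -1.39 and -0.54. 4921536K21Rik overlaps Dusp18, a phosphatase gene on the opposite strand, which fell by 1.101 on the log2 scale (adjusted p = 0.0134).

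Promoter windows, 250 bases before to 50 bases after the start, were listed in RefSeq for 230 of the 370, among them 23 of the higher and 35 of the lower. The windows of the lower transcripts had a median GC content of 62.3% and 24 CG pairs, and those of the higher ones 51% and 8 CG pairs, beside 60.7% and 20 over the windows of all tested genes. Single windows ranged from 42% to 80.3% GC in the lower and from 30.7% to 75.7% in the higher group. Because the groups overlap, 3 windows of each are shown, those of the named transcripts with the highest GC content, the one nearest to the group's median, and the lowest. The first 3, from lower transcripts, have 80.3%, 60.3% and 49.7% GC with 57, 24 and 15 CG pairs, and the next 3, from higher ones, 71.3%, 45% and 31.3% with 38, 10 and 2. They come from GRCm38.p6, 5′ to 3′ on the transcript's strand. Capitals mark any of the motifs searched on both strands, and adjoining matches run together. The motifs were GGGCGG for Sp1, the TATA box as TATAAA, the AP-1 site as TGANTCA, the CREB site as TGACGTCA, the E-box as CACGTG, the PU.1 core as GAGGAAGT, the NRF1 motif, and CCAAT, to which NF-Y binds.
4933421O10Rik, chr4:33031274-33031573, minus strand: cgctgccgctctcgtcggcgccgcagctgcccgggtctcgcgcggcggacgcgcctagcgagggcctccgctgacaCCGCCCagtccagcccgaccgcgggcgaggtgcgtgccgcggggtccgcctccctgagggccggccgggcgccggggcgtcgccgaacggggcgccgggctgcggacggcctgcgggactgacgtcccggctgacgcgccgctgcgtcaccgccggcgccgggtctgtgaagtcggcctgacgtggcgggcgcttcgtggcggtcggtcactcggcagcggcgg
5031425E22Rik, chr5:23433287-23433586, minus strand: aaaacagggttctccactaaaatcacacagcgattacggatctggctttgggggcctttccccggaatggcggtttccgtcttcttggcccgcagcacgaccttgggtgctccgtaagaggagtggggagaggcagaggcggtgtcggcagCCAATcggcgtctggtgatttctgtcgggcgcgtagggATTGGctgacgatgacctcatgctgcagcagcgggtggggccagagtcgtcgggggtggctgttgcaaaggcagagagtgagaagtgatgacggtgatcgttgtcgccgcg
4933440N22Rik, chr6:117908156-117908455, minus strand: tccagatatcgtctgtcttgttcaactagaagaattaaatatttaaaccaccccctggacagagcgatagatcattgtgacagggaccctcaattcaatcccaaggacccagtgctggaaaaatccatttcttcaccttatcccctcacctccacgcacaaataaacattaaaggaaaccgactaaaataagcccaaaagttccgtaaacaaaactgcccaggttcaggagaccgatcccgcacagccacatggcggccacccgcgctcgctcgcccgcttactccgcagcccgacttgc
4930570G19Rik, chr3:156561638-156561937, minus strand: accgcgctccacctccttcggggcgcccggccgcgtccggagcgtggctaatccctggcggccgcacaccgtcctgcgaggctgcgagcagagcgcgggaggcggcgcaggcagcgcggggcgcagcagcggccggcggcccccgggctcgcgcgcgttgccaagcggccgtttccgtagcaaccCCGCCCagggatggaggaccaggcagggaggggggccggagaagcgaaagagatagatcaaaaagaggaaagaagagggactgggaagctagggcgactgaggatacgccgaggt
B130055M24Rik, chr7:127448140-127448439, plus strand: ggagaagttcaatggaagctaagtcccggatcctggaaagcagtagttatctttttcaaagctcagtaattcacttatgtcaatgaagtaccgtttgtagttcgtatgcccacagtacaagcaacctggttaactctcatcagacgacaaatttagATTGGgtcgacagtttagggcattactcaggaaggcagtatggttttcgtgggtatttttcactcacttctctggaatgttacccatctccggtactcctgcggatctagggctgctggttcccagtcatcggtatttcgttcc
A230006K03Rik, chr7:61089688-61089987, minus strand: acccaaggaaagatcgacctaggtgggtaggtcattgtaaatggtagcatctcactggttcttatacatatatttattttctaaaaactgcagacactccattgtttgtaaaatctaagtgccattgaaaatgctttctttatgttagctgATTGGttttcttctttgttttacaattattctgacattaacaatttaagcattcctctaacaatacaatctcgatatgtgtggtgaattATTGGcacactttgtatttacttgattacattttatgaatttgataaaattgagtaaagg

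GGGCGG, the core of the box to which Sp1 binds, was in 57.1% of the lower windows, 39.1% of the higher windows, 54.7% of the 172 uncalled windows and 35.9% of all 27025 windows in the table, with 62.4% among tested genes. TATAAA was in 1 of 35 lower (2.86%) and 4 of 23 higher windows (17.4%), beside 14.2% of all windows and 7.41% among tested genes. CACGTG, an E-box, was in 14.3% of lower and 4.35% of higher windows, beside 9.82% among tested genes, and CCAAT in 37.1% and 43.5%, beside 38.7%. TGANTCA, the letters bound by AP-1, to which Fos and Jun belong, were in 2 of 35 lower (5.71%) and 0 of 23 higher windows, beside 4.92% among tested genes, 4.07% of uncalled and 7.93% of all windows. TGACGTCA was in 0 of 35 lower and 1 of 23 higher windows (4.35%), beside 3.17% among tested genes, 4.65% of uncalled and 1.88% of all windows. GAGGAAGT was in 2 lower and 0 higher windows, beside 3.13% among tested genes, and the NRF1 motif in 1 and 0, beside 1.91%. These are descriptions of letters in the windows.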

How the data were processed

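The authors ran STAR on paired-end reads of 16 libraries against GRCm39 (gencode vM32 genes plus human App) and deposited whole counts by gene symbol, not normalized. Here these were analysed in R 4.3.3 with edgeR 4.0.16, limma 3.58.1 and DESeq2 1.42.0. A gene was tested if 50% or more of the libraries had 5 or more counts of it, and scaling was by TMM. The quasi-likelihood test of edgeR was fitted over all tested genes with genotype and sex, and for each sex and the interaction with the 4 groups as terms. Adjusted p-values are Benjamini-Hochberg over all tested genes, and a standard error is the size of the log2 fold change over the root of its F statistic. CPM values use the library total for the rule and for per-kilobase levels, and the total times the TMM factor elsewhere. Scores are means of log2 CPM with a prior count of 2. In exact permutation tests, all two-sided, genotype labels were exchanged among libraries of the same sex. The procedure was tested on simulated data.

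Class, exons, strand and neighbours came from the gencode annotation in the reference, newer than that of the authors, and from RefSeq (GRCm38.p6) for transcripts absent from it. Named transcripts are the 12 higher and 12 lower of smallest p, the 6 of highest level and the 3 on each side of the threshold. Other names were chosen after their values were seen, as stated where they occur. The transcripts, lists and tests were chosen with earlier results of these data known. Depth ran from 9052932 to 18117286 counts a library, which makes low transcripts the least precise. No protein sequences were used here.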

Additional observations from a re-analysis of the deposited data

Results flagged for a closer look

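In 148 groups of 4 libraries, made of the named transcripts and of the totals and scores per library, 4 held a library whose gap to the next one took more of the group's range than Dixon's 95% critical value allows. Chance flags about 1 in 20 such groups, which is 7.4 here. A830082N09Rik in KI m replicate 3 was at 1.85 CPM against 4.71 to 5.05 CPM in the other KI m libraries (ratio 0.894). 2610011E03Rik in WT f replicate 4 was at 2.73 CPM against 1.44 to 1.503 CPM (ratio 0.95). 2410006H16Rik in KI f replicate 3 was at 28.3 CPM against 33.5 to 34.2 CPM (ratio 0.876). 4833439L19Rik in WT f replicate 4 was at 92.9 CPM against 109 to 111 CPM (ratio 0.903). The calls of these 4 transcripts were the same without each of the 16 libraries in turn.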

How the results depend on the processing

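Of the results, the count over all libraries was 89 to 110 under RLE normalization, library totals alone, DESeq2, limma voom, 2 other filters, an adjusted p of 0.05, robust dispersion, no sex term and the replicate block, and 90 to 113 with 1 library left out, beside 105, and 131 on the adjusted p alone. With the neuron covariate it was 20, and with the immediate early covariate, chosen after seeing the data, 1. The male count of 8 became 4 with library totals alone, 33 with DESeq2, 15 with limma voom, 77 without the filter, 1 at an adjusted p of 0.05 and 1 from male libraries alone, and 1 to 50 with 1 library left out. The female count of 83 was 45 to 99 with 1 library left out. The interaction count of 0 became 8 without the filter, and the count by sex 7 in WT libraries alone. For these the cause was not tested.

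The rule found 370 transcripts, 238 at 4 CPM and 237 when every library had to reach 2 CPM. With the replicate block the count over all libraries was 101, the female count 72 and the male count 3. Replicate numbers showed no clear pairing of the samples. Same-numbered WT and KI libraries deviated with correlations of 0.0467 to 0.135 in females and -0.33 to 0.0193 in males. Differently numbered ones ran from -0.245 to 0.242 in females and from -0.22 to 0.453 in males, so some libraries deviated together across numbers. For the 12 higher and 12 lower transcripts no direction turned, and calls were lost only under the 2 covariates. These also shrank the log2 fold changes of all but G530011O06Rik. They shrank by more than 1.5 times in 11 of 12 higher and 3 of 12 lower transcripts with the neuron score and in 8 and 10 with the immediate early score. That of G530011O06Rik grew from 1.501 to 1.80 with the neuron score and to 2.44 with the immediate early score. With the latter 2610011E03Rik went from 1.18 to 0.34, 9330162G02Rik from 0.61 to 0.17 and 4833445I07Rik from -1.31 to -0.36. Among all called transcripts 5 higher ones fell below 0 with the neuron score and 2 lower ones rose above 0 with the immediate early score, none of them called there. Depth limits transcripts near 2 CPM.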
